A study of Rattus norvegicus with 32 samples.

Results

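The nuclear-encoded respiratory chain subunits were the genes whose symbols name a subunit of complexes I to IV (Nduf, Sdh, Uqcr and Cox symbols) or of ATP synthase (Atp5 symbols). Of 22587 genes in the table, 85 symbols matched, and 77 of them reached a mean of 10 or more normalized counts in at least 1 of the 2 brain regions studied. These 77 members were 36 genes of complex I, 4 of complex II, 8 of complex III, 13 of complex IV and 16 of ATP synthase, grouped by symbol.

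The respiratory chain sits in the inner mitochondrial membrane. Complexes I and II pass electrons from NADH and succinate to ubiquinone, complex III passes them on to cytochrome c, and complex IV hands them to oxygen. Complexes I, III and IV pump protons as they do so, and ATP synthase uses the return of those protons to make ATP. Most subunits are encoded in the nucleus and a smaller set in mitochondrial DNA. Neurons depend on this chain for the ATP that restores their ion gradients. Several complex IV subunits exist as isoforms that differ between tissues, such as Cox4i1 and Cox4i2, and 3 genes (Atp5g1, Atp5g2 and Atp5g3) encode the same mature c subunit of the ATP synthase rotor.

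The animals were Wistar Kyoto rats 13 weeks old that had had a sham operation or both adrenal glands removed (ADREX, total bilateral adrenalectomy), and with them the glands that make corticosterone and adrenaline. For 4 hours they breathed ozone, at 0.8 ppm, or filtered air, and brainstem and hypothalamus were taken immediately afterwards. The 8 groups were therefore sham air, sham ozone, ADREX air and ADREX ozone, each in brainstem and in hypothalamus, with 4 libraries a group and 32 in all. No treatment was shared by all groups, and the labels name no hormone replacement. They do not say that each library came from a separate rat, so the p-values rest on the spread between libraries, part of which may be technical.

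Reads assigned to genes were recovered for 31 libraries and ranged from 6.44 to 12.4 M. The region labels fitted their markers: 8 of 9 hypothalamic marker genes tested were higher in hypothalamus, Crh was lower (-1.14 on the log2 scale), and 6 of 6 brainstem markers were lower. Summed hypothalamic markers were 5040 to 6985 in hypothalamus libraries and 199 to 830 in brainstem libraries, in normalized counts. Summed brainstem markers were 4413 to 5549 in brainstem and 45.2 to 181 in hypothalamus. Hoxa3 was at 0 in all 4 hypothalamus groups. Libraries are named by group and by the number in their title.

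Several libraries stood apart from their group in the members. In 3 of them (hypothalamus ADREX ozone 84, hypothalamus sham ozone 18 and brainstem sham air 3) the median over the cytosolic ribosomal protein genes also lay more than 0.4 (log2) below that of their group. Liver transcripts, transferrin not counted, took more than 2000 ppm of all normalized counts in 4 libraries: in brainstem sham ozone 18, and in hypothalamus ADREX air 68, sham air 2 and sham ozone 18. Where leaving these libraries out ended or made a call, turned the sign of a median or moved a change within a region by over 1.5 times, the value without them is given beside the result for the main genes named.

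Most respiratory chain subunits had lower normalized counts in hypothalamus than in brainstem. Averaged over the 4 conditions, 50 of 77 members (64.9%) were lower in hypothalamus at an adjusted p under 0.05 and 0 were higher, while 26.9% of the 14533 genes tested were lower. The median difference of the members was -0.30 on the log2(value + 1) scale, against -0.01 for all genes, and 75 of 77 differences were negative. By complex, 22 of 36 members of complex I were lower, 4 of 4 of complex II, 5 of 8 of complex III, 10 of 13 of complex IV and 9 of 16 of ATP synthase. Differences of this size overlapped between libraries: no member had all 16 hypothalamus libraries below all 16 brainstem libraries, a pattern that 3.63% of all genes showed. In bulk tissue, fewer cells of a type and less RNA per cell cannot be told apart.

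**Figure D1:**
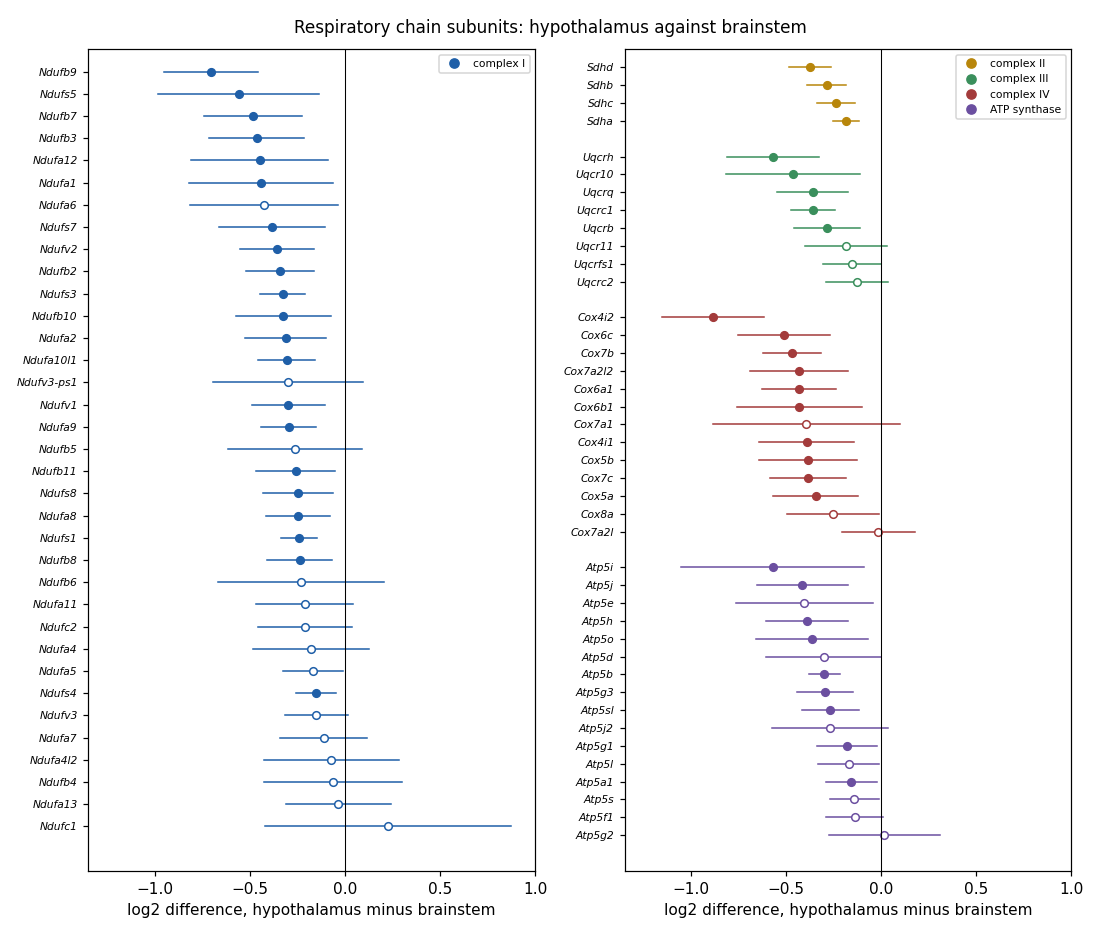
Difference between hypothalamus and brainstem for 76 of the 77 members, on the log2(normalized count + 1) scale, averaged over the 4 conditions (16 libraries a region). Bars are 95% intervals from limma, and filled points passed an adjusted p of 0.05. All points but Ndufc1 and Atp5g2 lie left of 0, and Cox4i2 lies farthest left.

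The 5 members with the smallest p came from 4 of the 5 groups. Atp5b, the catalytic beta subunit of ATP synthase, ranged from 5873 to 7968 normalized counts over the 16 brainstem libraries, with a median of 6777. In hypothalamus Atp5b ranged from 4696 to 6233 with a median of 5528. The ranges overlapped only between the lowest brainstem and the highest hypothalamus libraries, and the difference was -0.30 ± 0.04 (SE; adjusted p = 1.82e-07).

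Sdhd, a membrane anchor of complex II (succinate dehydrogenase), ranged from 741 to 1183 in brainstem (median 1029) and from 657 to 931 in hypothalamus (median 784). One brainstem library, ADREX ozone 81, held the value of 741, and the other 3 of its group held 1030 to 1050. The difference of Sdhd was -0.38 ± 0.05 (SE; adjusted p = 6.91e-07). Uqcrc1, a core protein of complex III, ranged from 1581 to 2123 in brainstem (median 1923) and from 1101 to 1806 in hypothalamus (median 1545), a difference of -0.36 ± 0.06 (SE; adjusted p = 3.33e-06). Cox7b, a small structural subunit of complex IV, ranged from 267 to 446 in brainstem (median 377) and from 182 to 334 in hypothalamus (median 279), a difference of -0.47 ± 0.08 (SE; adjusted p = 3.83e-06). In each of these genes most hypothalamus libraries lay below the brainstem median.

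Cox4i2, the complex IV isoform that takes the place of Cox4i1 in some cells and is known from lung and from cells of the vessel wall, had the widest difference of the members. Its normalized counts were 52.6 to 141 in brainstem (median 71.8) and 23 to 67.2 in hypothalamus (median 43.3), a difference of -0.89 ± 0.13 (SE; adjusted p = 1.25e-06). The highest brainstem value, 141, was that of ADREX ozone 81, whose group otherwise held 70.8 to 82.9. Markers of vessel wall (mural) cells were lower in hypothalamus for 8 of 13 genes, with a median of -0.33, while 26.9% of all genes were lower. Their summed level was 2511 to 3645 in brainstem and 2078 to 3051 in hypothalamus, and none was at 0 in any group. Endothelial markers were lower for 8 of 10 genes, with a median of -0.40 and overlapping sums of 4885 to 9342 and 5088 to 9269. Their part in the difference of Cox4i2 was not tested. Cox4i1, the isoform found in nearly all cells, differed by -0.39 ± 0.12 (SE; adjusted p = 0.00771).

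**Figure D2:**
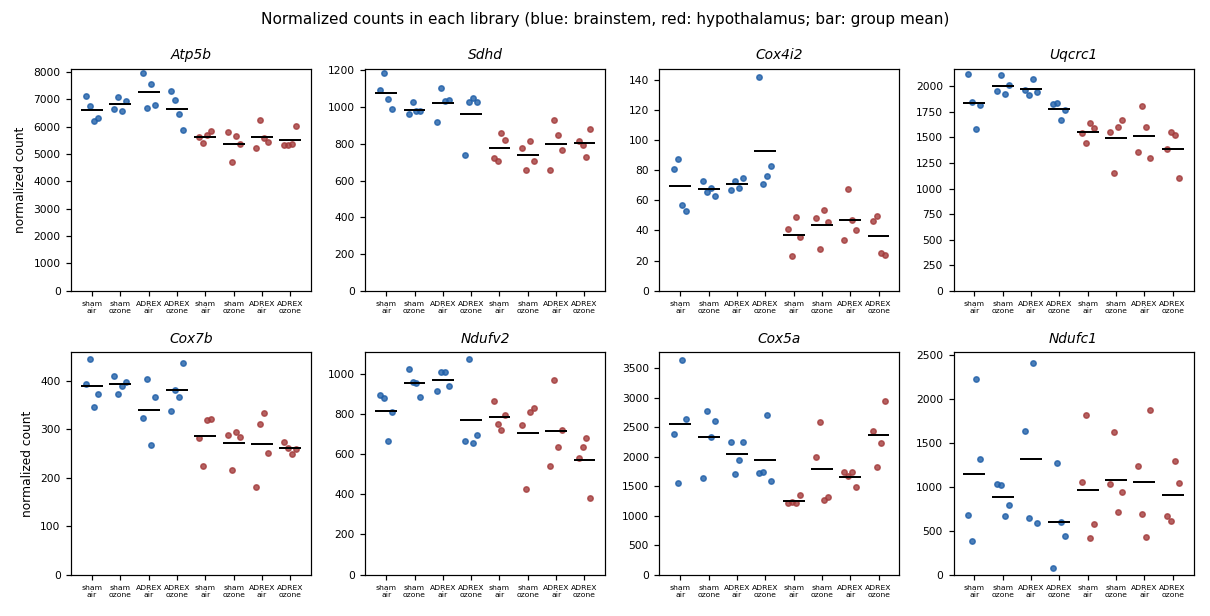
Normalized counts of 8 members in each library, by region, operation and exposure (vertical axes start at 0; bars are means of 4 libraries). Atp5b, Sdhd, Cox4i2, Uqcrc1 and Cox7b are lower in the hypothalamus groups, while Ndufc1 spread most within groups, from 73.5 to 2411 in brainstem.

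The start regions of these genes are shown because members that differ together may or may not share promoter letters. RefSeq promoters of the GRCr8 rat build (250 bases before to 50 after the annotated start) were found for 65 of 77 members, 16 members being matched to the gene table by an older symbol. Among the 5 members with the smallest p, all but Cox4i2 had an entry, and the 200 bases before the start are printed for these. They run 5′ to 3′ on the strand of the gene, and capitals mark matches to the motifs below that lie wholly within the printed bases.
Atp5b (chr7:1099858-1100057, plus strand): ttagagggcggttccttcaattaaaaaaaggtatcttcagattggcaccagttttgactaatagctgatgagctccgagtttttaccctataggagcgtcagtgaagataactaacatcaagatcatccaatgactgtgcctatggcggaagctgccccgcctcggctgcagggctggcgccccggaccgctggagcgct
Sdhd (chr8:59850642-59850841, minus strand): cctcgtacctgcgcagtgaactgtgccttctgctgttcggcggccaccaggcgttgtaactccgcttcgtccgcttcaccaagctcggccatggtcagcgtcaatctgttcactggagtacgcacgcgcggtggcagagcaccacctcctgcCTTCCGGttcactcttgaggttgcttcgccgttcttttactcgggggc
Uqcrc1 (chr8:118468023-118468222, plus strand): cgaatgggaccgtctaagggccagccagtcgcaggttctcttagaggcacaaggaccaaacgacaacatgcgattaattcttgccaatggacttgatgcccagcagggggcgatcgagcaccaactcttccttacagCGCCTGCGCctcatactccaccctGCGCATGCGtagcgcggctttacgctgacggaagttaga
Cox7b (chrX:75148836-75149035, plus strand): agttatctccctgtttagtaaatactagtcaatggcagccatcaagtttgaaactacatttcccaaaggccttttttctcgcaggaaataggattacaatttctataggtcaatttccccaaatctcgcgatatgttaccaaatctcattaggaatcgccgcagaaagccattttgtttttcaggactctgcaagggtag

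The motifs, searched on both strands, were those of factors known to drive genes of oxidative metabolism, with SP1 as a general promoter motif: NRF1 (GCGCANGCG), the ETS family that includes GABP (CCGGAAG), YY1 (AAGATGGC), the estrogen-related receptors ERR (TCAAGGTCA) and SP1 (GGGGCGG). Uqcrc1 held 2 NRF1 matches, at -63 to -55 and at -39 to -31 from the start, and a YY1 match across the start. Sdhd held an ETS match at -48 to -42 and, outside the printed bases, another ETS match and an ERR match after the start and an SP1 match across it. Atp5b and Cox7b held none of these letters in the 300 bases.

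Over the 65 members with a promoter, 24.6% held the NRF1 letters, against 7.62% of 21851 protein-coding and 5.80% of all 33469 promoters in the table. The ETS letters were in 29.2% of members and 10.7% of protein-coding promoters, those of YY1 in 21.5% and 3.67%, those of ERR in 3.08% and 0.366%, and those of SP1 in 18.5% and 26.7%. No matches of different motifs shared bases in any member. Of the 40 members with a promoter that were lower in hypothalamus, 8 held NRF1, 14 ETS, 10 YY1, 2 ERR and 6 SP1. Of the 25 that did not pass the test, 8 held NRF1, 5 ETS, 4 YY1, 0 ERR and 6 SP1. A match describes letters only and is no evidence of binding.

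In complex I, 22 of 36 members were lower, core and accessory subunits among them. Ndufb8 had the highest mean value of the complex (2504 ± 444 in brainstem and 2093 ± 251 in hypothalamus, SD, n = 16 libraries a region) and was lower by -0.24 ± 0.08 (SE; adjusted p = 0.0159). The call of Ndufb8 was lost without the 4 libraries high in liver transcripts, at -0.20 (adjusted p = 0.0766 by limma). These values are not per transcript length, so they do not rank genes by molecules.

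Ndufa4 and its paralog Ndufa4l2, both grouped with complex I by symbol although Ndufa4 is now regarded as part of complex IV, did not pass. Ndufa4 differed by -0.18 ± 0.15 and Ndufa4l2, a hypoxia-inducible gene and the lowest of the complex (13.8 ± 4.69 in brainstem, 12.6 ± 3.25 in hypothalamus, SD, n = 16 libraries a region), by -0.07 ± 0.17 (SE). Ndufc1 was the member with the highest difference, 0.23 with a 95% interval of -0.42 to 0.87, which covers the group's median.

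All 4 members of complex II were lower. Sdha and Sdhb, the flavoprotein and the iron-sulfur protein that also form the enzyme of the citric acid cycle, differed by -0.19 ± 0.03 and -0.29 ± 0.05 (SE; adjusted p = 2.38e-05 and 1.59e-05). Sdhc, the other membrane anchor, differed by -0.24 ± 0.05 (adjusted p = 0.000106). Sdha was also the least variable member, with an SD within groups of 0.09 in brainstem and 0.07 in hypothalamus (log2). Its values were 3160 to 3805 in brainstem (median 3402) and 2679 to 3337 in hypothalamus (median 3031), with overlap at the edges.

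In complex III, Uqcrh, the hinge protein, differed by -0.57 and Uqcr10, a small subunit with the lowest values of the complex, by -0.47 ± 0.17 (SE; adjusted p = 0.000154 and 0.0233). Without the 4 libraries high in liver transcripts, Uqcr10 was at -0.31 and did not pass (adjusted p = 0.133 by limma). Uqcrc2, the other core protein and the highest of the complex (2156 ± 360 in brainstem and 1967 ± 299 in hypothalamus, SD, n = 16 libraries a region), differed by -0.13 ± 0.08 and did not pass (adjusted p = 0.181). It passed without hypothalamus ADREX ozone 84, at -0.17 (adjusted p = 0.0481 by limma). In 42 of 43 alternatives Uqcrc2 did not pass, as in the main fit. Uqcrc1 and Uqcrc2 are both core proteins by name. The difference between the 2 genes' changes was not tested.

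In complex IV, Cox7c, a small subunit with the highest values of the complex, differed by -0.38 ± 0.10 (SE; adjusted p = 0.0014), Cox6a1, the widespread isoform of Cox6a, by -0.43 ± 0.10 (adjusted p = 0.000318), and Cox6b1 by -0.43 ± 0.16 (adjusted p = 0.0248). Without the 4 libraries high in liver transcripts Cox6b1 was at -0.26 and did not pass (adjusted p = 0.154 by limma). Cox8a, at -0.25 ± 0.12, missed the threshold (adjusted p = 0.0731). It passed without brainstem sham air 3, at -0.31 (adjusted p = 0.0141 by limma), and was at -0.10 when the 4 high in liver transcripts were left out. In 40 of 43 alternatives Cox8a did not pass, as in the main fit. Cox7a2l, a factor that joins complexes III and IV into supercomplexes, did not pass, at -0.02 with a 95% interval of -0.21 to 0.18, and its sign turned when any of 6 libraries was left out. Several tissue-restricted isoforms were scarce. Cox7a1, a heart and muscle isoform, averaged 12.3 in brainstem and 9.90 in hypothalamus, the member nearest to the minimum of 10 and the only one below it in 1 region. It was left out of the 14483 genes tested in hypothalamus alone, so 76 members were tested there. Cox6a2 and Cox8b, also heart and muscle isoforms, averaged 2.59 and 1.48, and 0.572 and 0. Cox6b2 and Cox8c, known from testis, averaged 3.96 and 3.34, and 0.0453 and 0.194. These 4 symbols fell below the minimum with Cox7b2, Cox6c-ps1, Ndufb4l1 and Ndufa3, the nearest below it at 6.32 and 3.32. Cox7a2 was not analysed here.

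In ATP synthase, the 3 genes for the c subunit did not all pass, and the differences between their changes were not tested. Atp5g3 was lower by -0.30 ± 0.07 and Atp5g1 by -0.18 ± 0.08 (SE; adjusted p = 0.000924 and 0.0463), while Atp5g2 differed by 0.02 ± 0.14 and did not pass. The call of Atp5g1 was lost in 22 of 43 alternatives (adjusted p up to 0.0871), that of Atp5g3 in none of the 43. The sign of Atp5g2 turned in 12 of the alternatives. Atp5a1, the alpha subunit, held 6830 ± 907 in brainstem and 6107 ± 727 in hypothalamus (SD, n = 16 libraries a region), the highest mean of the group over both regions, although Atp5b was level with it in brainstem at 6834. Atp5a1 was lower by -0.16 ± 0.07 (SE; adjusted p = 0.0415), a call lost in 21 of 43 alternatives (adjusted p up to 0.0861). Atp5sl, whose current name, Dmac2, marks it as an assembly factor of complex I, had the lowest values and differed by -0.27 ± 0.07 (adjusted p = 0.00251). Ndufv3-ps1 is named as a pseudogene, and Ndufa10l1 and Cox7a2l2 as copies of other genes, which need not be members. Reads that such copies share were counted in a way not given in the sources used here, so their values are uncertain.

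The lower level in hypothalamus was present in each of the 4 conditions, with unequal numbers of calls. Of the 77 members, 57 had a negative difference in all 4 conditions, 15 in 3 and 5 in 2. In sham air 9 members were lower (11.7%, against 15.1% of all genes), with a median of -0.19. In sham ozone 16 members were lower (20.8%, against 13% of all genes), with a median of -0.40. The ADREX air rats had 7 members lower (9.09%, against 12.7%), with a median of -0.28, and the ADREX ozone rats 18 (23.4%, against 15.4%), with a median of -0.36. In sham air and ADREX air the share of members called was thus below that of all genes. The 1 member higher in any condition was Atp5g2 in ADREX ozone (0.74 ± 0.29, SE; adjusted p = 0.0473), where brainstem held 387, 1560, 1930 and 1227 normalized counts and hypothalamus 1881, 1503, 1695 and 2315. The ranges overlap, and the value of 387 was that of ADREX ozone 81. The call of Atp5g2 was lost in 30 of 44 alternatives, with 0.24 left without brainstem ADREX ozone 81 (adjusted p = 0.366 by limma) and 0.62 without hypothalamus ADREX ozone 84 (adjusted p = 0.142 by limma).

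Single libraries weighed on these counts per condition, which come from 4 libraries a group. In sham ozone the count was 6 without hypothalamus sham ozone 18, 8 without brainstem sham ozone 18 and 9 without brainstem sham ozone 19. In sham air it was 4 without hypothalamus sham air 2 and 5 without brainstem sham air 1. In ADREX air it rose to 13 without hypothalamus ADREX air 66 and to 12 without brainstem ADREX ozone 81. In ADREX ozone, with the higher gene counted, it went from 19 to 9 without hypothalamus ADREX ozone 84. The count over the mean of the 4 conditions was steadier, 43 to 54 when each library was left out in turn, 34 when the 4 libraries with liver transcripts were dropped, and 53 when the 3 low in ribosomal proteins were dropped. These rules for leaving out libraries were chosen after the data were seen.

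Whether the region difference itself changed with treatment was tested as an interaction. Between the regions, 0 members differed in their response to ozone in sham rats (0% of all genes), and 0 members at an unadjusted p under 0.05 (2.86% of all genes), by limma. The smallest p belonged to Ndufb3, a small accessory subunit of complex I, at -0.62 ± 0.35, or -0.36 without hypothalamus sham ozone 18. Likewise 0 members differed in the ADREX effect in air (0% of all genes), 2 at an unadjusted p under 0.05 (2.66%). These were Cox7a1 at -2.06 ± 0.68 and Cox5a, the subunit that binds next to Cox4, at 0.67 ± 0.31. edgeR and DESeq2 on recovered reads also called 0 members in both.

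Other mitochondrial gene lists were set beside the members in the same comparison. Of all 14533 genes tested there, 26.9% were lower in hypothalamus (3906) and 3944 were higher, and whether any list differed from these shares was not tested. Of 16 enzymes of the citric acid cycle tested, 11 were lower in hypothalamus and 0 higher, with a median of -0.22, led by Sucla2, a subunit of succinyl-CoA ligase (-0.53 ± 0.05, SE; adjusted p = 6.82e-11). Ogdh and Idh3a, subunits of the oxoglutarate and isocitrate dehydrogenases, differed by -0.35 and -0.25. Of 73 mitochondrial ribosomal proteins 22 were lower and 2 higher, with a median of -0.14, and the smallest p belonged to Mrpl45 (-0.44), Mrps6 (-0.46) and Mrpl48 (-0.35). Electron carriers and their partners were lower for 5 of 15 genes and higher for 1. Among them were Etfa, which feeds electrons from fatty acid oxidation (-0.39), and Coq9 and Coq6, of ubiquinone synthesis (-0.40 and 0.20).

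Assembly factors of the chain were mixed, with 15 of 45 lower and 4 higher (26.9% of all genes were lower). Cox19, a copper chaperone of complex IV, differed by -0.58 ± 0.05, Ndufaf7 by -0.35 ± 0.05 and Ttc19, a complex III factor, by 0.73 ± 0.04 (SE; adjusted p = 5.21e-12, 9.96e-07 and 7.49e-15). Among 15 regulators of mitochondrial biogenesis 6 were lower and 2 higher. Esrrg and Esrra, nuclear receptors that act on genes of oxidative metabolism, differed by -1.17 ± 0.06 and -0.64 ± 0.09 (SE; adjusted p = 4.16e-17 and 5.94e-07), and Polg, the mitochondrial DNA polymerase, by -0.37 ± 0.07. Subunits encoded in mitochondrial DNA were not analysed here.

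Cytosolic ribosomal proteins did not share the difference: 1 of 63 was lower and 2 higher, with a median of 0.00. The library medians of the 2 lists can be set side by side. In all 16 brainstem libraries the median distance of the members from their means over 32 libraries was above that of the ribosomal proteins, by 0.00 to 0.36 (median 0.11). In the hypothalamus this held in 0 of 16 libraries, and the gap was -0.26 to -0.07 (median -0.17). The means cover both regions, so these gaps show the same region differences library by library and are no separate evidence.

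Markers of cell types were set beside the members in the same comparison, where 26.9% of the 14533 genes tested were lower and 3944 were higher. Of the 8 oligodendrocyte markers, myelin genes among them, 8 were lower in hypothalamus, with a median of -1.17 and sums of 279152 to 464163 in brainstem and 125283 to 202932 in hypothalamus. The 7 genes of fast-spiking and large projection neurons, neurofilaments and Kcnc channels among them, were all lower, with a median of -2.10 and sums of 11520 to 17190 and 2276 to 3512. Neuron markers were split, 6 of 13 lower and 4 higher, with a median of -0.09 and sums of 75256 to 82674 and 65230 to 74327. Astrocyte markers were lower for 5 of 8 and higher for 1, with a median of -0.60 and sums of 44374 to 52873 and 28126 to 32981. None of these markers was at 0 in any group. Cerebellar granule and Purkinje cell markers were lower for 3 of 6 and higher for 1, with sums of 536 to 2588 and 706 to 1061, and Pcp2 was at 0 in 3 hypothalamus groups. The 3 lower ones had means of 259 and 1.87 (Gabra6), 333 and 4.45 (Fat2) and 93.6 and 2.19 (Cbln3) in brainstem and hypothalamus. Calb1, the higher one, had means of 333 and 725. Pituitary markers were higher for 3 of 3, choroid plexus markers for 2 of 7, and microglia markers lower for 2 of 8. The part of these cell types in the lower level of the members was not tested.

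Within each region no member passed the test for ozone or for adrenalectomy. Members of a library often moved together, so the counts of positive and negative differences below are not counts of independent genes. Over the 10 contrasts of this kind, limma called 0 of 77 members in brainstem and 0 of 76 in hypothalamus at an adjusted p under 0.05, and edgeR and DESeq2 also called 0 in each. A member that misses the threshold may still have changed: in brainstem, 37 to 45 of 77 members had a 95% interval within 1.5-fold either way in the 4 simple contrasts, and in hypothalamus 34 to 40 of 76.

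**Figure D3:**
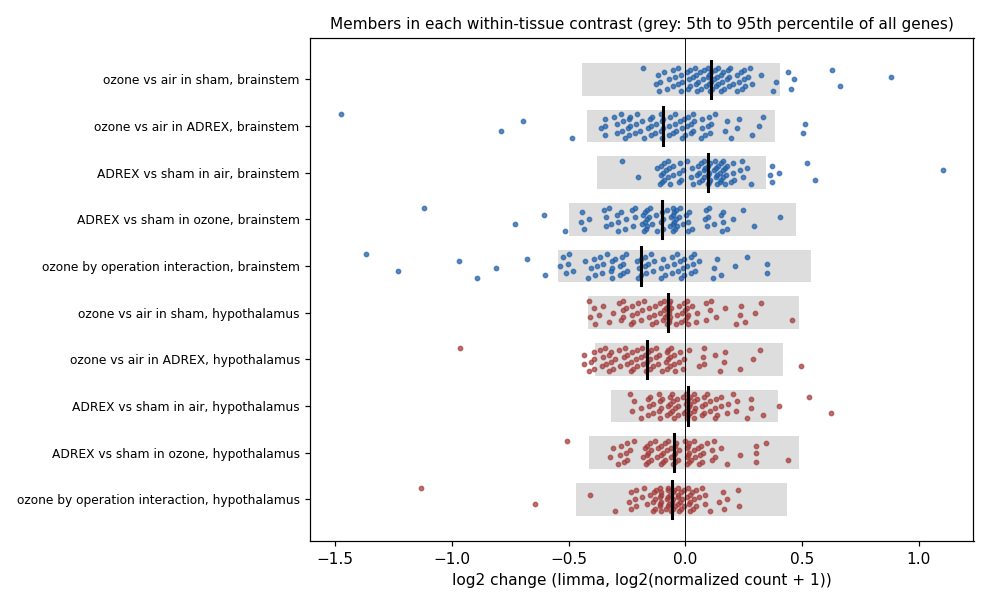
Change of each member (points) in the 10 contrasts within a region, with the median of the members (black bar) and the 5th to 95th percentile of all genes tested (grey). The medians lie between -0.19 and 0.11, and no point passed an adjusted p of 0.05.

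In the brainstem of sham rats, ozone against air gave 0 members called (0.979% of 14408 genes) and 1 at an unadjusted p under 0.05 (7.7% of genes), with 61 differences positive, 16 negative and a median of 0.11. Over 27 alternatives that median ran from 0.02 to 0.21. Among all genes 7110 differences were positive and 7298 negative. The smallest p was that of Cox7a1, at low counts in each library: sham air libraries 1 to 4 held 7.54, 10.4, 2.07 and 10.5, and sham ozone libraries 17 to 20 held 13.1, 18.1, 8.77 and 14.2. The groups overlapped, and the change was 0.88 ± 0.39 (SE; adjusted p = 0.59). Ndufb3 followed at 0.39 and Ndufv2, an iron-sulfur subunit of the NADH-binding arm of complex I, at 0.24. Without brainstem sham air 3, Cox7a1 was at 0.44, Ndufb3 at 0.21 and Ndufv2 at 0.15.

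In the brainstem of ADREX rats, ozone against air gave 0 called (0% of genes) and 3 at an unadjusted p under 0.05 (5.91%), with 26 positive, 51 negative and a median of -0.09. Ndufv2 held 916, 1010, 1009 and 939 in ADREX air and 664, 1072, 653 and 693 in ADREX ozone. Library 82 was above every ADREX air library and the other 3 were below, and the change was -0.36 ± 0.14 (SE; adjusted p = 0.801). Ndufc1 differed by -1.48 ± 0.70, with values of 1629, 646, 2411 and 583 in air and 73.5, 1264, 600 and 437 in ozone. Ndufv3-ps1 differed by -0.79.

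ADREX against sham in air gave 0 members in brainstem (0% of genes) and 1 at an unadjusted p under 0.05 (3.78%), with 55 positive, 22 negative and a median of 0.10. Cox7a1 came first at 1.11 ± 0.39, with 12.5, 11.6, 22.7 and 17.3 in ADREX air against the sham air values above. All 4 ADREX libraries were above all 4 sham libraries (adjusted p = 0.9998). Cox7a1 was picked for its small p, and how many of all genes separated in this way was not counted. Ndufb9, an accessory subunit of complex I, differed by 0.36 and Ndufv2 by 0.26. Without brainstem sham air 3 the median of the members was -0.03, with Cox7a1 at 0.67, Ndufb9 at 0.19 and Ndufv2 at 0.17.

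ADREX against sham in ozone gave 0 members in brainstem (2.44% of genes) and 4 at an unadjusted p under 0.05 (11.2%), with 20 positive, 57 negative and a median of -0.10. Ndufv2 came first at -0.34 ± 0.14 (SE; adjusted p = 0.342), with 1025, 956, 951 and 882 in sham ozone against the ADREX ozone values above. Without library 82 of ADREX ozone it passed, at -0.51 (adjusted p = 0.0187 by limma). In 26 of 27 alternatives Ndufv2 did not pass, as in the main fit. Atp5f1, a subunit of the peripheral stalk of ATP synthase, differed by -0.33 and Cox7c by -0.41.

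The interaction of ozone and operation in brainstem gave 0 members (0.201% of genes) and 3 at an unadjusted p under 0.05 (5.3%), with 15 positive, 62 negative and a median of -0.19. Ndufv2 again came first, at -0.60 ± 0.20 (SE; adjusted p = 0.576), and passed without library 82 of ADREX ozone, at -0.77 (adjusted p = 0.0498 by limma). In 25 of 26 alternatives Ndufv2 did not pass, as in the main fit. Uqcrc1 differed by -0.28 and Cox7a1 by -1.23, or -0.79 without brainstem sham air 3. The contrasts within a region share libraries, so Ndufv2 in several of them is not repeated evidence.

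In the hypothalamus of sham rats, ozone against air gave 0 members (1.59% of 14483 genes) and 3 at an unadjusted p under 0.05 (12.6%), with 21 positive, 55 negative and a median of -0.08. Cox5a came first. It held 1220, 1227, 1205 and 1351 in sham air and 1994, 2588, 1269 and 1318 in sham ozone. Libraries 17 and 18 of sham ozone were high and libraries 19 and 20 within the range of air, and the change was 0.46 ± 0.18 (SE; adjusted p = 0.298). Ndufs4, a subunit of complex I whose loss causes a known mitochondrial encephalopathy, held 714, 640, 626 and 689 in air and 788, 941, 707 and 690 in ozone, a change of 0.22 ± 0.09 (adjusted p = 0.322). Ndufv3 differed by -0.33. Without hypothalamus sham ozone 18 the median of the members turned to 0.05, and Cox5a was at 0.26, Ndufs4 at 0.13 and Ndufv3 at -0.18. Among the pathway lists the 1 gene called within a region was Gpd2, the glycerol phosphate dehydrogenase that feeds electrons to ubiquinone, at -0.33 ± 0.08 in this contrast (adjusted p = 0.0473).

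In the hypothalamus of ADREX rats, ozone against air gave 0 members (0% of genes) and 2 at an unadjusted p under 0.05 (8.03%), with 13 positive, 63 negative and a median of -0.16. Over 27 alternatives that median ran from -0.27 to -0.04. Among all genes 7189 differences were positive and 7294 negative. Cox5a held 1731, 1663, 1737 and 1485 in ADREX air and 2428, 1830, 2236 and 2944 in ADREX ozone. All 4 ozone libraries were above all 4 air libraries, with a change of 0.49 ± 0.18 (SE; adjusted p = 0.586). Cox5a was picked for its small p, and how many of all genes separated in this way was not counted. Ndufv3-ps1 differed by -0.97 and Atp5g2 by 0.29, or -0.54 and 0.17 without ADREX ozone 84.

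ADREX against sham in the hypothalamus gave 0 members in air (0.0138% of genes), 1 at an unadjusted p under 0.05 (5.57%), with 44 positive, 32 negative and a median of 0.01. In ozone it gave 0 (2.24%) and 2 at an unadjusted p under 0.05 (12%), with 31 positive, 45 negative and a median of -0.05. Cox5a came first in both, at 0.40 ± 0.18 in air and 0.44 ± 0.18 in ozone (SE; adjusted p = 0.882 and 0.335). In ozone it passed without library 18 of sham ozone, at 0.64 (adjusted p = 0.0267 by limma). There Cox5a did not pass in 25 of 27 alternatives, as in the main fit. Atp5g2 differed by 0.27 in air and 0.30 in ozone, Ndufb11 by 0.28 in air and Sdhc by -0.17 in ozone. Without ADREX ozone 84 Atp5g2 in ozone was at 0.19. The median of the members changed sign in 6 of 27 alternatives in air (-0.08 to 0.11 over all) and in 2 of 27 in ozone, where it was 0.01 without ADREX ozone 84. The interaction in hypothalamus gave 0 members (0.138%) and 1 at an unadjusted p under 0.05 (4.4%), with 22 positive, 54 negative and a median of -0.06. Its smallest p were those of Ndufv3-ps1 (-1.13), Cox4i2 (-0.64) and Ndufs1 (0.15). Its median changed sign in 5 of 26 alternatives and was 0.05 without ADREX ozone 84, where Ndufv3-ps1 was at -0.70 and Ndufs1 at 0.06.

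The members varied more between libraries of 1 group than most genes did. Their median SD within groups (log2) was 0.30 in brainstem and 0.32 in hypothalamus, against 0.25 and 0.22 for all genes tested. Ndufc1 was the most variable, with an SD of 1.16 in brainstem and 0.75 in hypothalamus.

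Much of this variation was shared by the members of a library. In hypothalamus sham ozone 18, 61 of 77 members had their lowest value of the 4 libraries, in hypothalamus ADREX ozone 84 and hypothalamus sham air 2 there were 56, and in brainstem sham air 3 there were 51. In hypothalamus ADREX air 66, by contrast, 55 members had their highest. The cytosolic ribosomal proteins moved with them: 47 of 63 were lowest of 4 in hypothalamus sham ozone 18, 45 in hypothalamus ADREX ozone 84, 42 in hypothalamus sham air 2 and 43 in brainstem sham air 3. How many of all genes were lowest or highest in these libraries was not counted, so the shifts may not be particular to the members. Summed members made up 6730 ppm of the counts in hypothalamus sham ozone 18, the lowest of all libraries, and 9944 ppm in brainstem sham ozone 18, the highest. Liver transcripts other than transferrin were at 2526 ppm in the first of these and 3164 in the second, which are of different regions. Their part in the level of the members was not tested.

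**Figure D4:**
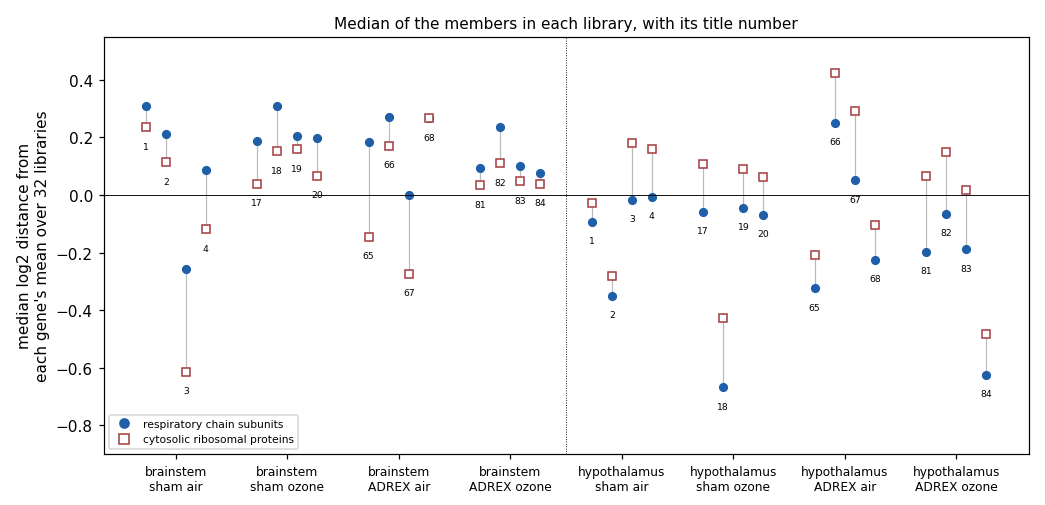
Median distance of the members (circles) and of the cytosolic ribosomal proteins (squares) in each library from each gene's mean over all 32 libraries, on the log2 scale, with the library's title number. Hypothalamus sham ozone 18 and ADREX ozone 84 and brainstem sham air 3 are the low libraries of their groups in both lists, and circles lie above squares in brainstem and below them in hypothalamus.

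A few members went the other way in those libraries. Atp5a1, Atp5g2, Cox5a, Cox7a2l, Ndufa5 and Uqcrc2 had their highest value of 4 in each of the 3 libraries that were low in ribosomal proteins, a set picked after the values were seen. For Cox5a these values were 3644 in brainstem sham air 3, 2588 in hypothalamus sham ozone 18 and 2944 in hypothalamus ADREX ozone 84. What set these libraries apart was not tested, and how many of all genes were highest in each of the 3 was not counted.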

How the data were processed

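RNA from 32 brainstem and hypothalamus samples was sequenced as mRNA libraries on an Illumina NextSeq 500, per the labels' protocols. The values are a signal, namely gene counts scaled per library, and the authors deposited them as 1 table of 22587 genes. Partek, DESeq2 and the rat build rn6 are named without roles, per the submitters' processing notes. Aligner, annotation and strand setting: not given in the sources used here.

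Tests ran on log2(value + 1). Genes with a mean of 10 or more over the libraries of a fit were tested with limma 3.58.1 in R 4.3.3, with a trended prior variance. Each region was fitted on 16 libraries and 4 group means, and contrasts between regions on 32 libraries and 8 group means. P-values were adjusted by Benjamini-Hochberg over all genes of a contrast, and an adjusted p under 0.05 was a call. On this scale, fold changes of low genes are understated. A step divided the values of 31 libraries into whole reads (100% of values within 0.001 of a whole number), giving 6.44 to 12.4 M reads. On these edgeR 4.0.16 and DESeq2 1.42.0 were run. For hypothalamus ADREX air 66 reads were not recovered, so it entered limma only. The limma fits were tested on simulated data.

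Genes were named by rule: the tissue isoforms and complex II whatever their p, the 5 called members with the smallest p in each direction of a contrast (or the 3 smallest p where none was called), the highest and lowest mean of each complex, and up to 3 called genes of each pathway list. Members and lists were chosen with earlier results of these data known, and the contrasts between regions in sham ozone, ADREX air and ADREX ozone were added after the values were seen. Promoters came from RefSeq tables of build GRCr8. Each replicate number occurs once in each region, and no label ties it to an animal. Of the members, 1 gene is not reported by name here.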

Additional observations from a re-analysis of the deposited data

Results flagged for a closer look

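The highest or lowest library of a group was compared with the other 3 by Dixon's ratio. Over 312 tests of 39 named genes in 8 groups, 32 values passed in 13 libraries, where chance flags about 1 in 20. Values are normalized counts, with the range of the other 3 libraries.

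In brainstem ADREX air 65, Sdhb was 1420 (others 1060 to 1110). In brainstem ADREX air 67, Cox8a was 266 (others 349 to 355). In brainstem ADREX ozone 81, Atp5g3 was 868 (others 1660 to 1790), Atp5sl was 307 (others 166 to 178), Cox4i2 was 141 (others 70.8 to 82.9), Ndufb8 was 1130 (others 2310 to 2480), Sdha was 3770 (others 3160 to 3250) and Sdhd was 741 (others 1030 to 1050). In brainstem ADREX ozone 82, Ndufv2 was 1070 (others 653 to 693). In brainstem ADREX ozone 83, Cox5a was 2710 (others 1580 to 1730). In brainstem sham air 3, Cox7c was 2380 (others 3820 to 4000) and Uqcrc2 was 2900 (others 1880 to 2030). In brainstem sham ozone 17, Atp5a1 was 7660 (others 6370 to 6540), Ndufa12 was 98.2 (others 128 to 132) and Uqcrc2 was 2320 (others 1980 to 2010). In brainstem sham ozone 20, Ndufa4l2 was 5.9 (others 13.1 to 13.8). In hypothalamus ADREX air 68, Atp5a1 was 7320 (others 5310 to 5330). In hypothalamus ADREX ozone 84, Atp5b was 6030 (others 5340 to 5390), Atp5g3 was 1130 (others 1320 to 1330), Ndufb9 was 182 (others 341 to 368), Ndufs1 was 2250 (others 1740 to 1800) and Uqcrc2 was 2910 (others 1760 to 1920). In hypothalamus sham air 2, Cox8a was 198 (others 341 to 356) and Uqcr10 was 123 (others 260 to 277). In hypothalamus sham air 4, Cox5a was 1350 (others 1210 to 1230). In hypothalamus sham ozone 18, Atp5g1 was 236 (others 158 to 170), Cox4i1 was 878 (others 1720 to 1880), Cox6b1 was 473 (others 1200 to 1340), Cox7b was 216 (others 284 to 295), Cox8a was 139 (others 295 to 312), Ndufa12 was 30.4 (others 79.9 to 86.1) and Uqcr10 was 110 (others 226 to 238). Summed over the members, brainstem sham ozone 18 held 9940 ppm of all normalized counts (others 9290 to 9370) and hypothalamus sham ozone 18 held 6730 (others 8200 to 8400).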

How the results depend on the processing

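The median difference between the regions kept its sign under all 43 alternatives, from -0.33 to -0.24. The count of lower members, 50, was 46 with no filter on low values, 49 with a mean of 50 or more, 50 with a pseudocount of 0.5 or of 5, 52 with median-of-ratios rescaling, 55 with quantile normalization, 50 with edgeR and 57 with DESeq2, and 43 to 54 with each library left out. Within regions and in both interactions between regions, counts stayed at 0 under every alternative run, except where named here: leaving out each library gave 0 to 1 for ADREX against sham in ozone in either region and for the brainstem interaction, and 1 came for ADREX against sham in ozone in hypothalamus without the libraries rich in liver transcripts.

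Counts per condition moved more. In sham air the 9 became 16 with the compared groups alone, 5 with quantile normalization, 4 without those rich in liver transcripts, and 4 to 13 with each library left out. In sham ozone the 16 became 26 with the compared groups alone, 2 without those rich in liver transcripts, and 6 to 22 with each library left out. In ADREX air the 7 became 12 with the compared groups alone, 19 with DESeq2, 11 with edgeR, 13 without the libraries away in ribosomal proteins and 5 to 13. In ADREX ozone the 19 became 8 with the compared groups alone and 9 to 23. The causes were not tested, beside the smaller number of libraries where some are left out. The median of the sham ozone response between regions went from -0.19 to 0.02 without the libraries away in ribosomal proteins. The median of the members also changed sign in 3 of 43 alternatives for the ADREX effect between regions (-0.16 to 0.03) and, within regions, in 2 of 27 for ADREX against sham in air in brainstem, 6 of 27 in air and 2 of 27 in ozone in hypothalamus, 5 of 26 for the interaction in hypothalamus and 2 of 27 for ozone in sham hypothalamus.

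Signs turned for members near 0 in the mean over conditions. Atp5g2, at 0.02, became -0.051 with DESeq2, -0.047 with edgeR, -0.00959 with quantile normalization, -0.020 without the libraries away in ribosomal proteins, -0.015 without those rich in liver transcripts, and -0.11 to 0.084 with each library left out. Cox7a2l, at -0.02, became -0.080 to 0.019 with each library left out, and Ndufa4l2, at -0.07, became 0.014 without those rich in liver transcripts.

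Both rules that leave out libraries by transcript content were chosen after seeing the data. The planned limit of 1000 ppm of liver transcripts was not run, since with transferrin in the list it would have removed 16 brainstem and 6 hypothalamus libraries.

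With the replicate block (the title number, shared by the regions), 47 members were lower in the mean over conditions, and 6, 14, 6 and 14 in sham air, sham ozone, ADREX air and ADREX ozone. Over 16 pairs the correlations of same-numbered libraries were -0.53 to 0.61, 7 were over 0.1 and 0 libraries matched their own number best. Differences that run through a whole library also enter these correlations, so they cannot decide whether same-numbered libraries share an animal. The number was not taken as a pairing because no label ties it to an animal. With 4 libraries a group and 6.44 to 12.4 M reads a library, depth and number limit what can be seen: the intervals within regions often reach past 1.5-fold.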
